A study of Schizosaccharomyces pombe with 4 samples.

Results

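The mitochondrial ribosome translates the few messages that the mitochondrial genome encodes, which in fission yeast are subunits of the respiratory chain and of ATP synthase. Its ribosomal RNAs and 1 of its proteins, Var1, come from the mitochondrial genome, and the other proteins are encoded in the nucleus, made in the cytosol and imported. Its large subunit (54S in yeast) holds the peptidyl transferase centre and its small subunit (37S) reads the message. The nuclear genes of these proteins were followed here in 4 libraries of total RNA from Schizosaccharomyces pombe. Genes were included when a protein-coding feature on chromosome I, II or III had a description with the words mitochondrial ribosomal protein, unless its name began with mug or meu. This gave 73 genes of 7015 features, after 1 of 74 matching descriptions was removed for its name.

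The labels give 4 genotypes, wild type, swd22[delta], ssu72[delta] and clr4[delta], with 1 library each. The first pair of genes encode parts of CPF, the cleavage and polyadenylation factor that cuts nascent RNA and adds its poly(A) tail, of which Ssu72 is a phosphatase, and clr4 encodes the histone H3 methyltransferase of heterochromatin. All 4 cultures grew at 18 °C for 3 days in the rich medium YEA and were held in mid-log phase. The labels name no other allele, strain background or clone. The deposited values are ratios of each library to a shared library that the files do not name, called the unnamed reference here, and reads were recovered from them. With 1 library per genotype no difference has a replicate check and no test of genotype was possible. Every interval is a 95% counting interval on reads, which covers counting error only and not the spread between cultures. No molecular identifiers separate molecules from PCR copies, so the intervals may be too narrow even for counting error.

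The libraries held 15282718 to 24005944 reads over the features, and their labels were checked on the deleted genes. The ssu72 feature had 16 reads where the label is ssu72 deletion and 478 to 740 elsewhere, and the swd22 feature had 281 where it is swd22 deletion and 651 to 787 elsewhere. The clr4 feature had 1645 reads where the label is clr4 deletion and 1158 where it is wild type. Scaled for library size this is a log2 ratio of -0.07 (-0.18 to 0.04), so that reads there do not bear out the clr4 label. The library labelled wild type held 200 reads of swi6, which encodes the heterochromatin protein HP1, against 3601 to 4431 in every other library. It also held 6 reads of ura4, a gene of uracil synthesis that often serves as a marker, against 1732 to 3961 elsewhere, so that the control of the comparisons with wild type stands apart from the other 4 libraries in these genes. The difference between libraries below is the log2 ratio of their reads on the scale of the deposited values, and each direction against wild type refers to the library with that label. In RNA from whole cultures, fewer cells with a transcript and less of it per cell cannot be told apart.

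Sequences that bear on the comparison were read from the RefSeq assembly ASM294v3, into which the coordinates of the files fit. A RefSeq coding sequence lay inside the feature on the same strand for all 73 members. CPF acts at the poly(A) signal, whose most common form is AATAAA, and this hexamer stood in the last 100 bases of the feature, on its own strand, in 24 of 73 members (32.9%). All mRNA features had it in 25.4% and cytosolic ribosomal protein genes in 31.3%. The sites of 3 members named below are shown with the hexamer in capitals, as DNA of the coding strand. They lie at chrII:3728201-3728230 (minus strand, nam9), chrI:2674888-2674917 (plus strand, mrpl40) and chrII:1875724-1875753 (minus strand, SPBC3H7.04).
nam9: caaaagtttagtAATAAAatataaaacatt
mrpl40: gttataaagcttAATAAActtttgtaaact
SPBC3H7.04: atcttataaataAATAAAgttttgtaatta

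Upstream of their features the members differed from the genes of the cytosolic ribosome. Fission yeast promoters of cytosolic ribosomal proteins are known for the HomolD box, CAGTCACA, and for the HomolE box. In the 300 bases upstream of the feature, on either strand, HomolD stood in 0 of 73 members, in 45 of 131 cytosolic ribosomal protein genes (34.4%) and in 1.68% of all 5124 nuclear mRNA features. HomolE stood in 1 of 73 members, in 33 of 131 cytosolic ribosomal protein genes (25.2%) and in 1.01% of all. TATAAA stood in 42 of 73 members (57.5%) and in 51.9% of all. The cytosolic genes rps7 (chrI:2242561-2242590, minus strand) and rps102 (chrI:898995-899024, minus strand) show HomolD in capitals, and the member with HomolE, ymr31 (chrII:1651905-1651934, plus strand), shows that box in capitals. This stretch lies inside the feature of rps402, a cytosolic ribosomal protein gene on the other strand whose upstream side faces ymr31.
rps7: ttttggaagagCAGTCACAaagtgaaatat
rps102: cctaccctcaaaaaaggaCAGTCACAaata
ymr31: gcaagtaccaACCCTACCCTacccatttaa

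In budding yeast the RNA-binding protein Puf3 binds the 3′ ends of many messages for mitochondrial ribosomal proteins, at an element written TGTANATA. In the stretch between the coding sequence and the end of the feature, on the same strand, 4 of 69 members with such a stretch held the element (5.80%), against 10.1% of 4740 nuclear mRNA features. Their sites have the element in capitals and lie at chrIII:822744-822773 (plus strand, mrpl20), chrII:3871685-3871714 (plus strand, rsm10), chrII:2231986-2232015 (minus strand, bot1) and chrI:5143751-5143780 (plus strand, SPAC29A4.03c). A match is only a description of the letters, and the element was not more frequent among members than among all.
mrpl20: atatacaatggTGTACATAattaattgggt
rsm10: gagtaacacatTGTAAATAgcaagacggtc
bot1: taaaagttattTGTACATAtaaaaattgca
SPAC29A4.03c: agctcgttattTGTACATAaaatttcaggc

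By their descriptions 44 members belong to the large subunit and 26 to the small one, and 3 state no subunit (SPBC16A3.14, SPBC3H7.04 and ymr31). RefSeq names 37 products of 54S and 22 of 37S, and 1 of the large class by description, mrp51, is a 37S protein there. The members lie on all 3 chromosomes, 26 on I, 33 on II and 14 on III. Their coding sequences were short, with a median of 531 bases (168 to 2757), and 40 of 73 had 1 coding exon. The features that were counted were longer, with a median span of 1172 bases. They often overlapped other features, 12 members on the same strand and 54 on the other strand, and only 15 were free of overlap. The counting's strand setting is not given, so that reads of overlapping pairs may not be kept fully apart.

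Reads fell on every member, though those of cox1101 and cox1102, which are nearly identical, can hardly be given to either copy. All 73 held at least 10 reads in each of the 5 libraries, and the lowest number was 27 reads for cox1102 in the library labelled wild type. The level, in reads per kilobase of feature per 1000000 reads, had a median over the members of 51.1 in wild type, 49.5 in swd22 deletion, 46.3 in ssu72 deletion, 47.2 in clr4 deletion and 53.4 in the unnamed reference. In the library labelled wild type the middle of the members lay between 33.5 and 69.0 (quartiles), close to the median of 45.0 over all mRNA features with at least 10 reads. The cytosolic ribosomal protein genes had a median level of 597 in that library, and the 33 other nuclear genes of mitochondrial translation had one of 25.1. Together the members took 0.504% to 0.571% of the reads of a library, and the cytosolic genes 6.04% to 10.4%.

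**Figure D1:**
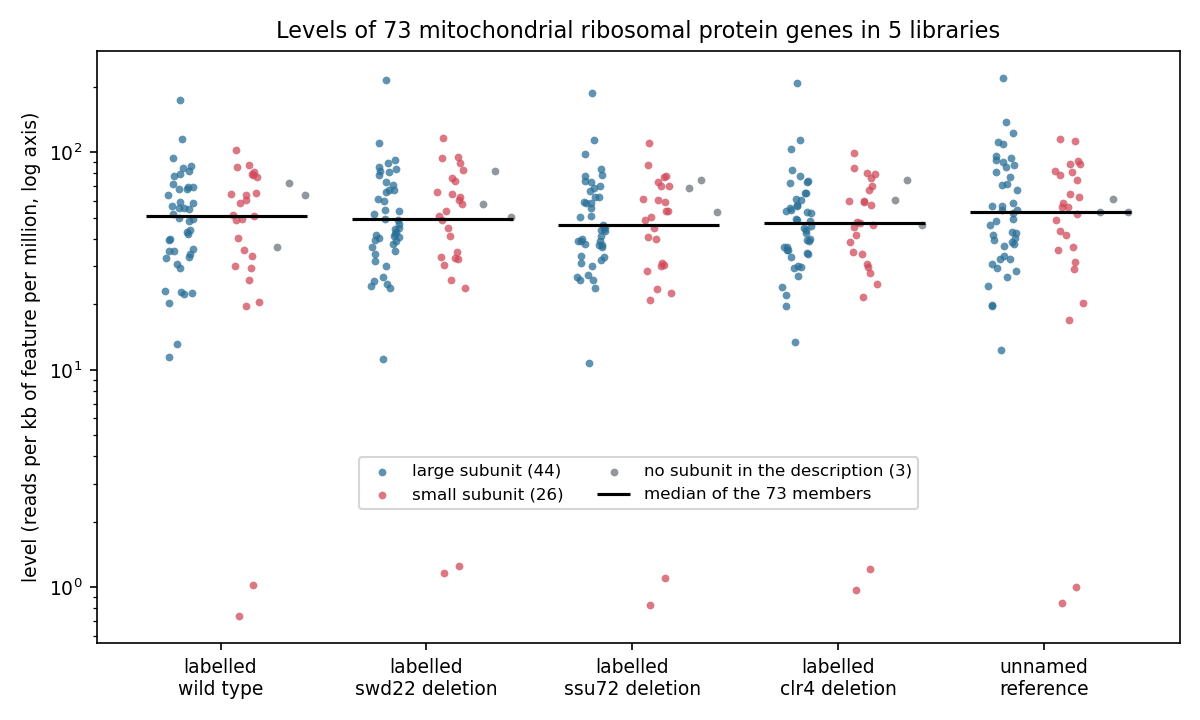
Levels of the 73 genes in each library, in reads per kilobase of feature per 1000000 reads on a log axis; each point is 1 gene, coloured by subunit, and the black line is the median of all 73. The medians lie between 46.3 and 53.4, and the pair of points near 1 in each library are cox1101 and cox1102.

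Both subunits were expressed at like levels. In the library labelled wild type the median level was 49.6 for the 44 large subunit genes and 51.4 for the 26 small subunit genes. In the library labelled ssu72 deletion the medians were 44.2 and 49.7. The order of the members was kept between libraries, with a Spearman correlation of their levels of 0.91 to 0.98 over the 10 pairs of libraries and the highest value between swd22 and ssu72 deletion. This correlation is across genes, which share their libraries and span lengths and are not independent replicates.

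Among the members of highest level were tam9 and SPAC29A4.03c. The gene tam9 (chromosome II, 2145039 to 2145299, plus strand), for the large subunit protein bL31m, had levels of 116 in wild type, 89.3 in swd22 deletion, 114 in ssu72 deletion, 114 in clr4 deletion and 138 in the unnamed reference. The swd22 deletion library was the low one of the 5 for tam9.

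SPAC29A4.03c (chromosome I, 5142407 to 5143810, plus strand), for the small subunit protein S9, had levels of 85.6 in wild type, 117 in swd22 deletion, 111 in ssu72 deletion, 99.1 in clr4 deletion and 115 in the unnamed reference. Its lowest value was that of the library labelled wild type, from which swd22, ssu72 and clr4 deletion differed by 0.45 (0.36 to 0.53), 0.38 (0.29 to 0.46) and 0.21 (0.13 to 0.30). It shares 66 bases on the same strand with SPAC29A4.02c, which held 24391 to 58343 reads and differed from wild type by -0.60, -0.60 and -0.36. What those reads add to SPAC29A4.03c was not tested.

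The lowest levels belonged to cox1101, cox1102 and mrp49. The genes cox1101 (chromosome I, 1267830 to 1270260, minus strand) and cox1102 (chromosome I, 4906912 to 4909314, plus strand) each encode Rsm22, a factor of the small subunit, in tandem with Cox11, which helps to bring copper to cytochrome c oxidase. Their coding sequences of 2262 bases differ at 3 positions and share an identical run of 1658 bases. Reads from one copy can therefore hardly be given to it, and the values of both are uncertain. Their levels were 1.02 and 0.74 in wild type, and 1.26 and 1.17 in swd22 deletion. Across the 5 libraries cox1101 held 38 to 67 reads and cox1102 27 to 55. The gene mrp49 (chromosome III, 1787161 to 1788596, plus strand), for the large subunit protein mL61, was measured at 13.1 in wild type, 11.2 in swd22 deletion, 10.8 in ssu72 deletion, 13.4 in clr4 deletion and 12.4 in the unnamed reference. The CPF deletions were lowest, with ssu72 deletion at -0.29 (-0.51 to -0.06) against wild type. A transcript of SPCC1442.11c, with at most 13 reads in any library, lies inside its feature on the other strand. On the same strand mrp49 overlaps SPNCRNA.503, and what that feature contributes was not tested.

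Most members varied little. In 66 of 73 the 4 labelled libraries lay within 1.5-fold of each other, or 90.4%, where 70.4% of the 4952 mRNA features with a mean of at least 50 reads did so (69.2% of all 5059 with at least 10 reads). The median range over the 4 libraries was 0.28 on the log2 scale for members and 0.41 for those mRNA features. Of the other nuclear genes of mitochondrial translation 32 of 33 lay within 1.5-fold, of the cytosolic ribosomal protein genes 111 of 131 and of the nuclear oxidative phosphorylation genes 40 of 49. The 7 members outside were SPCC777.17c, mrpl44, ymr31, mrp11, bot1, mrpl40 and cox1102. The narrowest ranges were those of mrpl20 and img1.

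The gene mrpl20 (chromosome III, 821264 to 823477, plus strand) encodes the large subunit protein mL58, and its level was 29.3 in wild type, 29.9 in swd22 deletion, 29.9 in ssu72 deletion and 30.1 in clr4 deletion. The unnamed reference held 37.2 and lay above all 4. The gene img1 (chromosome I, 1641662 to 1642932, plus strand), for bL19m, had 49.8, 49.5, 50.9 and 49.4 in the labelled libraries and 56.4 in the unnamed reference. For both genes every counting interval between labelled libraries held 0. The end of mrpl20 shares 67 bases on the same strand with SPCC1393.12.

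Loss of Swd22, a WD repeat subunit of CPF, was compared with wild type first. The members had a median difference of 0.08 on the log2 scale (quartiles -0.12 to 0.21), beside 0.03 (-0.23 to 0.33) for all 5048 measured mRNA features. At least 1.5-fold higher were 5 of 73 members, and none was lower by that much, where the background over mRNA features was 14.2% higher and 5.82% lower. Among the 5 was cox1102, with 55 reads against 27 and a difference of 0.67 (-0.02 to 1.39), an interval that holds 0. At least 2-fold higher were 2 members, SPCC777.17c and mrpl44, beside a background of 6.48% higher and 1.72% lower. The shares of members at both thresholds lay below the background. Counting intervals lay wholly above 0 for 26 members and wholly below 0 for 17, against 41.6% and 35.9% of mRNA features.

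Loss of Ssu72 gave a median of -0.03 (quartiles -0.16 to 0.11), beside -0.02 (-0.29 to 0.27) for all 5050 mRNA features. At least 1.5-fold higher were 4 members, where the background was 13.0%, and 2 were lower, bot1 and mrpl40, where it was 8.30%. On the scale of the median mRNA ratio mrpl40, at -0.58, was under 1.5-fold and 1 member was lower. The 2 members at least 2-fold higher were again SPCC777.17c and mrpl44, with a background of 6.10%, and none was 2-fold lower (background 2.87%). Counting intervals lay above 0 for 15 members (background 36.7%) and below 0 for 24 (background 42.1%). This comparison and the one before share the library labelled wild type.

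The library labelled clr4 deletion had a median of -0.03 (quartiles -0.15 to 0.12), which equals that of all 5056 mRNA features (-0.03). At least 1.5-fold higher were 3 members (background 10.6%), SPCC777.17c, mrpl44 and ymr31, and none was lower (background 3.62%). No member reached 2-fold, where 5.40% of mRNA features were higher and 1.23% lower. Intervals lay above 0 for 15 members (background 33.1%) and below 0 for 22 (background 40.7%). All 3 comparisons share the library labelled wild type, and the 3 members higher in each are those in which this library lay below every other one by at least 1.3-fold (background 4.62%).

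**Figure D2:**
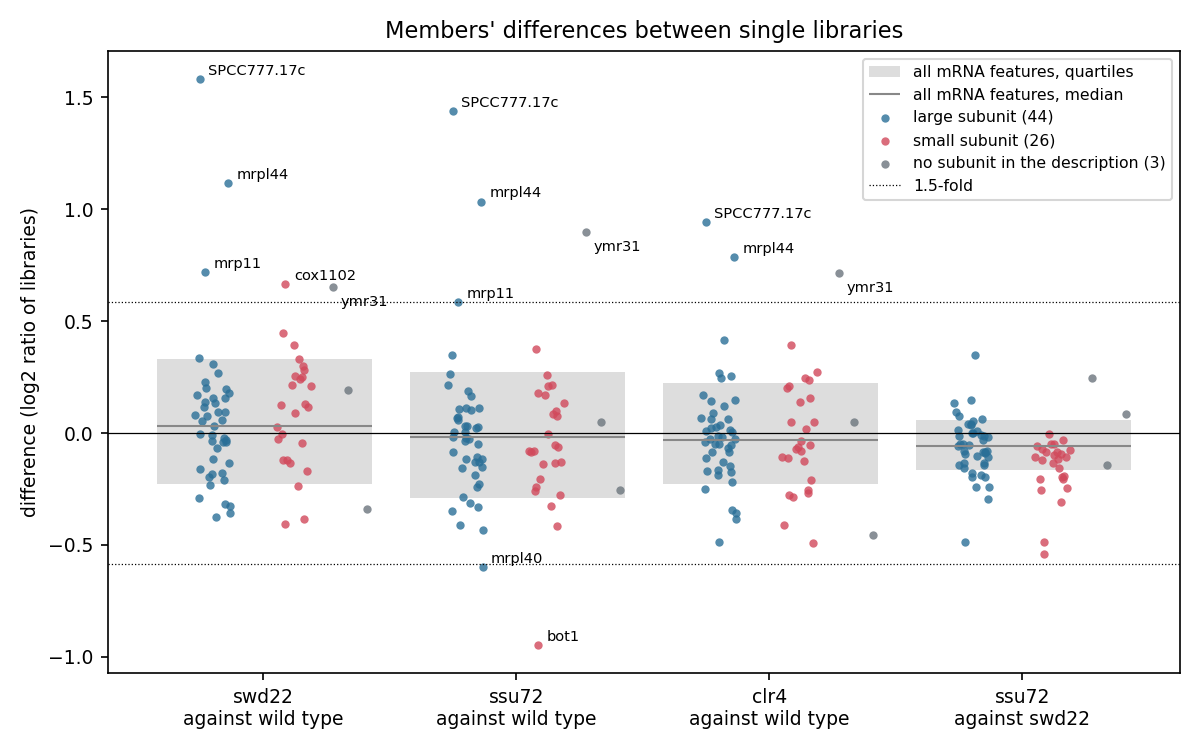
Differences of the 73 genes on the log2 scale, for the libraries labelled swd22, ssu72 and clr4 deletion against wild type and for ssu72 against swd22 deletion; each point is 1 gene, the grey band and line are the quartiles and median of all measured mRNA features, and dotted lines mark 1.5-fold. Most members lie inside the band, and those past 1.5-fold are named. In the last column all 26 small subunit genes lie below 0, some of them above the grey line.

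SPCC777.17c (chromosome III, 1618146 to 1619330, minus strand) encodes a predicted large subunit protein of the L9 family. It held 207 reads in wild type, 796 in swd22 deletion, 882 in ssu72 deletion, 594 in clr4 deletion and 529 in the unnamed reference. Its level was 11.5, 34.3, 31.1, 22.0 and 19.7 in the same order, so that wild type was lowest and the CPF deletions highest. The differences from wild type were 1.58 (1.36 to 1.81) in swd22 deletion, 1.44 (1.22 to 1.66) in ssu72 deletion and 0.94 (0.71 to 1.18) in clr4 deletion, or 2.99-, 2.71- and 1.92-fold. Against the unnamed reference swd22 deletion was at 0.80, ssu72 deletion at 0.66 (0.50 to 0.81) and clr4 deletion at 0.16 (-0.01 to 0.33), while wild type was at -0.78 (-1.02 to -0.55). The CPF deletions were thus above the other 3 libraries, and wild type below them.

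The feature next to SPCC777.17c was also higher in the deletions than in wild type. The gene vps35, which encodes a retromer subunit, begins on the other strand at the base after it (chromosome III, 1619331 to 1622409) and held 3483 reads in wild type, 7595 in swd22 deletion, 8112 in ssu72 deletion, 7079 in clr4 deletion and 5272 in the unnamed reference. Its differences from wild type were 0.76, 0.57 and 0.44 in swd22, ssu72 and clr4 deletion. Against the unnamed reference, however, wild type was at -0.03 for vps35, where it was at -0.78 for SPCC777.17c. The gene on the other side, SPCC777.12c, shares 65 bases with SPCC777.17c on the same strand and differed by 0.12 to 0.17. What vps35 contributes to the values of SPCC777.17c was not tested.

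The gene mrpl44 (chromosome II, 4125818 to 4126258, plus strand) encodes the large subunit protein mL53. It held 152 reads in wild type, 423 in swd22 deletion, 489 in ssu72 deletion, 392 in clr4 deletion and 405 in the unnamed reference. Its level was 22.6 in wild type and 48.9, 46.3, 39.0 and 40.5 in the others, so that wild type alone was low. The differences from wild type were 1.12 (0.84 to 1.39) in swd22 deletion, 1.03 (0.77 to 1.31) in ssu72 deletion and 0.79 (0.51 to 1.07) in clr4 deletion. Against the unnamed reference swd22 deletion was at 0.27 (0.07 to 0.47) and ssu72 deletion at 0.19 (-0.00 to 0.38). There the sign of clr4 deletion turned, to -0.06 (-0.26 to 0.15), but this interval holds 0. No feature overlaps it, and its neighbours pof12 and cnp3, which lie 38 and 59 bases away on the other strand, differed from wild type by 0.05 to 0.28 and by -0.47 to 0.58.

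The gene ymr31 (chromosome II, 1651978 to 1652538, plus strand), named kgd4 in RefSeq, was described as a ribosomal protein and is known in budding yeast as a subunit of alpha-ketoglutarate dehydrogenase. It held 316 reads in wild type, 638 in swd22 deletion, 925 in ssu72 deletion, 775 in clr4 deletion and 678 in the unnamed reference. The levels were 36.9, 58.0, 68.8, 60.6 and 53.4, again with wild type alone at the bottom. Its differences from wild type were 0.65 (0.46 to 0.85) in swd22 deletion, 0.90 (0.71 to 1.09) in ssu72 deletion and 0.71 (0.52 to 0.91) in clr4 deletion. The whole feature lies inside that of SPBC21B10.09 on the other strand, which differed by -0.05 to 0.14. Its divergent neighbour rps402, for a protein of the cytosolic ribosome, differed by -0.30 to -0.10.

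The gene mrp11 (chromosome I, 389391 to 390520, plus strand) encodes uL10m, the base of the stalk that recruits translation factors to the large subunit. It held 897 reads in wild type, 1895 in swd22 deletion, 2114 in ssu72 deletion, 1400 in clr4 deletion and 2351 in the unnamed reference. The levels were 52.0, 85.6, 78.1, 54.3 and 91.8, and these fell into a low pair, wild type and clr4 deletion, and a high set of the CPF deletions and the unnamed reference. The differences from wild type were 0.72 (0.60 to 0.83) in swd22 deletion, 0.58 (0.47 to 0.70) in ssu72 deletion and 0.06 (-0.06 to 0.18) in clr4 deletion. Against the library labelled clr4 deletion, swd22 deletion was at 0.66 (0.55 to 0.76) and ssu72 deletion at 0.52 (0.42 to 0.62). Against the unnamed reference the directions turned, to -0.10 in swd22 deletion and -0.23 (-0.32 to -0.15) in ssu72 deletion. The convergent gene pre1, for a proteasome subunit, shares 114 bases with mrp11 on the other strand and differed from wild type by 0.63, 0.75 and 0.51.

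The gene bot1 (chromosome II, 2231539 to 2233275, minus strand) encodes the small subunit protein S45, which fission yeast needs for growth. It held 1067 reads in wild type, 1033 in swd22 deletion, 870 in ssu72 deletion, 1649 in clr4 deletion and 2213 in the unnamed reference. Its level was 40.3 in wild type, 30.3 in swd22 deletion, 20.9 in ssu72 deletion, 41.6 in clr4 deletion and 56.2 in the unnamed reference, so that both CPF deletions were below the other 3 libraries and ssu72 deletion was lowest. The differences from wild type were -0.41 (-0.53 to -0.28) in swd22 deletion, -0.95 (-1.08 to -0.82) in ssu72 deletion and 0.05 (-0.06 to 0.16) in clr4 deletion. The direction was the same against clr4 deletion, with -0.46 (-0.57 to -0.34) in swd22 deletion and -0.99 (-1.11 to -0.87) in ssu72 deletion, and against the unnamed reference, with -0.89 and -1.43 (-1.54 to -1.31). In ssu72 deletion it was 1.93-fold below wild type, 1.99-fold below clr4 deletion and 2.69-fold below the unnamed reference.

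The feature of bot1 lies wholly inside that of SPBC14C8.15 on the other strand, which shares all 1737 bases of it. SPBC14C8.15 held 2151 reads in wild type, 2978 in swd22 deletion, 3739 in ssu72 deletion, 2912 in clr4 deletion and 3186 in the unnamed reference, and its differences from wild type were 0.11, 0.15 and -0.14. It did not follow bot1. The gene upstream of bot1 on the same strand, spt8, differed by -0.21, -0.29 and -0.47, with clr4 deletion as the lowest. The stretch of the 300 bases upstream of bot1 that lies outside SPBC14C8.15 and spt8 is chrII:2233337-2233460 on the minus strand, and it is shown because this member had the lowest difference in ssu72 deletion. It holds no TATAAA.
bot1: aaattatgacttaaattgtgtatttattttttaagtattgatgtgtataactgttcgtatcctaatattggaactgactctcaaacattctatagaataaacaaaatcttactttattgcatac

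The gene mrpl40 (chromosome I, 2673637 to 2674938, plus strand) encodes the large subunit protein uL24m. It held 1370 reads in wild type, 1373 in swd22 deletion, 1421 in ssu72 deletion, 1569 in clr4 deletion and 1974 in the unnamed reference. The levels were 69.0, 53.8, 45.5, 52.9 and 66.9, with ssu72 deletion lowest and wild type and the unnamed reference highest. The differences from wild type were -0.36 (-0.47 to -0.25) in swd22 deletion, -0.60 (-0.71 to -0.49) in ssu72 deletion and -0.38 (-0.49 to -0.28) in clr4 deletion. Against clr4 deletion, ssu72 deletion was at -0.22 (-0.32 to -0.11) and swd22 deletion at 0.03 (-0.08 to 0.13). Its convergent neighbour did4 overlaps it by 102 bases on the other strand and lay higher than wild type by 0.67, 0.54 and 0.20. The 300 bases upstream of mrpl40, chrI:2673337-2673636 on the plus strand, are free of other features on either strand and hold TATAAA once, in capitals, and are shown as the matching stretch of the other member at least 1.5-fold lower.
mrpl40: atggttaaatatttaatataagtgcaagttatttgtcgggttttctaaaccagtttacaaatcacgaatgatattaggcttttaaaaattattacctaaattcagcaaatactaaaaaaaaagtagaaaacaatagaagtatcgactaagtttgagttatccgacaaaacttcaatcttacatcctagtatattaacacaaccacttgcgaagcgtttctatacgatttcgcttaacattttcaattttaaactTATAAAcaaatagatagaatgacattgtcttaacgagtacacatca

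**Figure D3:**
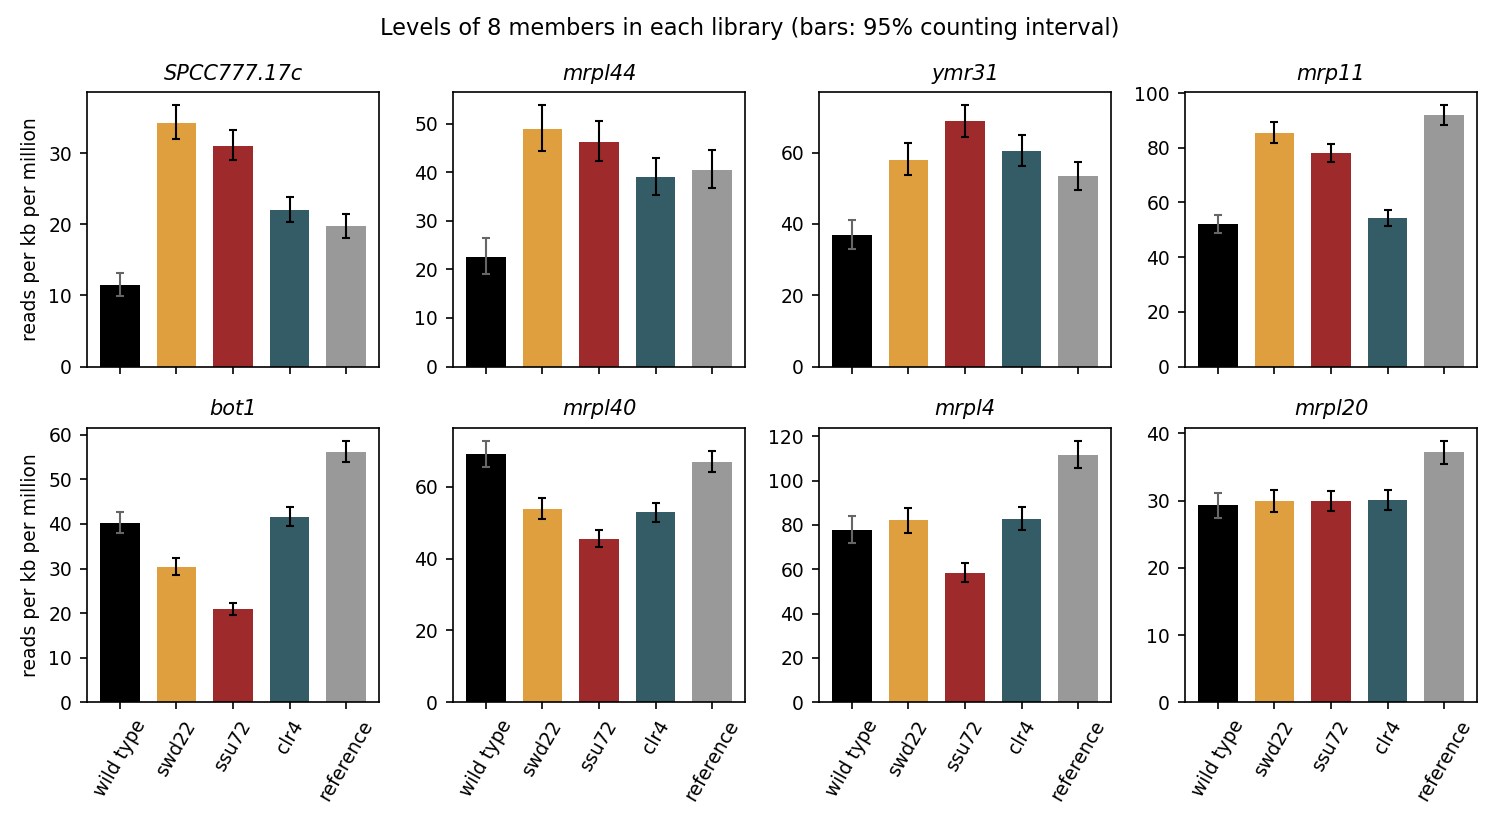
Levels of 8 genes in the library of each label and in the unnamed reference, in reads per kilobase of feature per 1000000 reads; error bars are 95% counting intervals of 1 library. SPCC777.17c, mrpl44 and ymr31 are lowest in wild type, bot1, mrpl40 and mrpl4 are lowest in ssu72 deletion, mrp11 splits wild type and clr4 deletion from the rest, and mrpl20 differs little between the labelled libraries.

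The gene mrpl4, for the large subunit protein uL29m, lies outside the rule for named genes and was chosen after its values were seen. It was, with bot1, 1 of the 2 members in which the library labelled ssu72 deletion lay below every other library by at least 1.3-fold (background 1.52%). It held 617 reads in wild type, 836 in swd22 deletion, 729 in ssu72 deletion, 982 in clr4 deletion and 1316 in the unnamed reference. Its difference from wild type was -0.41 (-0.57 to -0.25) in ssu72 deletion, and 0.08 (-0.08 to 0.23) and 0.09 (-0.06 to 0.24) in swd22 and clr4 deletion. Against wild type only ssu72 deletion was low. Against the unnamed reference every labelled library was, at -0.52 in wild type, -0.45 in swd22 deletion, -0.93 in ssu72 deletion and -0.43 in clr4 deletion. The feature overlaps mrpl4-antisense-1 on the other strand, and what that feature contributes was not tested.

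The remaining genes at the low end in the CPF deletions lay within 1.5-fold of wild type. The gene nam9 (chromosome II, 3728195 to 3729325, minus strand), for uS4m, whose counterpart in bacteria binds early as the small subunit forms, had levels of 78.9 in wild type, 60.5 in swd22 deletion, 59.2 in ssu72 deletion, 76.0 in clr4 deletion and 74.7 in the unnamed reference. Both CPF deletions were below the other 3 libraries, by -0.38 (-0.49 to -0.27) in swd22 deletion and -0.41 (-0.52 to -0.31) in ssu72 deletion against wild type, with clr4 deletion at -0.05 (-0.15 to 0.05). It shares 6 bases on the same strand with rns1, which was at -0.34 in ssu72 deletion and at 0.04 in swd22 deletion. The gene mrpl23 (chromosome II, 4219752 to 4220616, plus strand), for uL13m, had levels of 58.8, 46.9, 43.6, 45.9 and 54.6. All 3 deletions were below wild type there, by -0.33 (-0.47 to -0.18), -0.43 (-0.57 to -0.29) and -0.36 (-0.50 to -0.22). For tam9 only swd22 deletion was below wild type, by -0.37 (-0.56 to -0.18), with ssu72 deletion at -0.03 (-0.20 to 0.15).

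Other genes marked the ends of the clr4 comparison. The gene img2 (chromosome I, 590691 to 592152, plus strand), for mL49, had levels of 22.2 in wild type, 23.7 in swd22 deletion, 23.9 in ssu72 deletion, 29.6 in clr4 deletion and 26.7 in the unnamed reference, and it was higher in clr4 deletion than in wild type by 0.41 (0.26 to 0.57). It shares 61 bases on the same strand with csr102, which was at -0.29, and lies 73 bases from SPAC3H8.04 on that strand, which was at 0.73. What either contributes to img2 was not tested. At the low end lay mrp5 (uS5m of the small subunit) at -0.49 (-0.59 to -0.39), mrpl3 (mL44 of the large subunit) at -0.49 (-0.59 to -0.39), SPBC3H7.04 (mS42) at -0.45 (-0.57 to -0.34) and mrps12 (uS12m, a protein of the decoding centre) at -0.41 (-0.56 to -0.27). In each of these 4 genes the library labelled clr4 deletion was the lowest of the 5. SPBC3H7.05c, which meets SPBC3H7.04 end to end with 4 shared bases, was at -1.77 in clr4 deletion, -1.53 in ssu72 deletion and -0.95 in swd22 deletion. For mrpl3 the levels were 79.5 in wild type, 73.4 in swd22 deletion, 73.4 in ssu72 deletion, 56.7 in clr4 deletion and 109 in the unnamed reference, which stood above all 4.

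The CPF deletions were also compared with each other, which does not involve the library labelled wild type. Members had a median difference, ssu72 minus swd22 deletion, of -0.09 (quartiles -0.16 to -0.01), beside -0.06 (-0.16 to 0.06) for all 5041 mRNA features. None was 1.5-fold higher (background 1.39%) or lower (background 2.44%). Of the 73 members 58 were below 0, where 3232 of 5041 mRNA features were. All 26 small subunit genes were below 0, from -0.54 for bot1 to -0.00, and 31 of 44 large subunit genes were. With the subunit taken from RefSeq the counts were 21 of 22 and 25 of 37. Of all mRNA features 64.1% were below 0. Among the small subunit genes mrps16, nam9, mrps28, mrps17 and mrps12, from -0.00 to -0.056, lay above the median of all mRNA features, -0.059. Counting intervals lay wholly below 0 for 27 members (background 40.6%), 13 of them of the small subunit, and above 0 for 3 (background 18.8%).

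The cytosolic ribosomal protein genes lay on the other side of 0 in this comparison, with a median of 0.20 and 129 of 131 above 0. The other nuclear genes of mitochondrial translation were at -0.14 and the nuclear oxidative phosphorylation genes at -0.11. The median of all mRNA features was itself -0.06, with 35.9% of them above 0 and 64.1% below. The medians of the mitochondrial lists thus lay on the side of most mRNA features, and that of the cytosolic ribosome on the other. The largest difference among members toward ssu72 deletion was that of tam9, at 0.35 (0.18 to 0.52).

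Against the library labelled clr4 deletion, swd22 deletion had a median of 0.11 (quartiles -0.04 to 0.22), beside 0.06 for all mRNA features. There 2 members were 1.5-fold higher, mrp11 and SPCC777.17c (background 5.38%), and none was lower (background 4.67%). SPCC777.17c, at 0.64, was under 1.5-fold on the scale of the median mRNA ratio, at 0.58. In ssu72 deletion against clr4 deletion the median was 0.03 (quartiles -0.14 to 0.15), with none 1.5-fold higher (background 4.17%) and 1 lower, bot1 (background 5.91%). Counting intervals lay above 0 for 35 members in swd22 deletion (background 43.8%) and below 0 for 11 (background 27.9%), and in ssu72 deletion for 24 (background 38.0%) and 19 (background 35.3%). Among the small subunit genes, 20 of 26 were higher in swd22 than in clr4 deletion, and 27 of 44 large subunit genes were, where 59.4% of mRNA features were.

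The subunits were close to each other in each comparison with wild type. In swd22 deletion the median was 0.04 for large and 0.12 for small subunit genes. In ssu72 deletion the medians were -0.02 and -0.07, and in clr4 deletion -0.02 and -0.06. These gaps of under 0.1 are smaller than the quartile range within either subunit. Proteins were also grouped by the letter of their family name in RefSeq, which gives 28 universal proteins, 14 shared with bacteria and 18 of mitochondria only, while 13 carry no such name. The medians of the first 3 groups lay between -0.02 and 0.06 in swd22 deletion, -0.11 and -0.02 in ssu72 deletion and -0.06 and -0.03 in clr4 deletion, and their median levels in wild type were 56.1, 49.2 and 44.5. The 13 others had medians of 0.20, 0.11 and 0.20 and a median level of 36.9 in wild type.

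**Figure D4:**
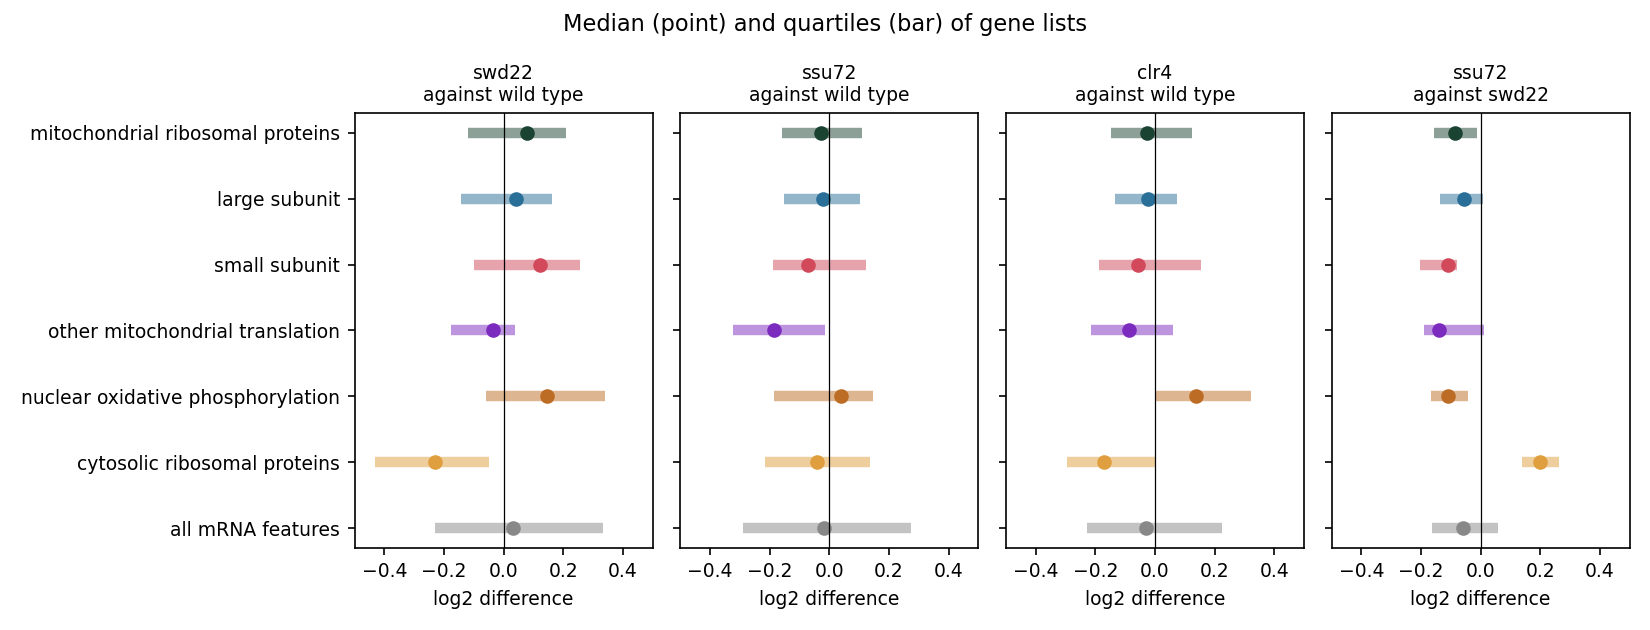
Median (point) and quartiles (bar) of the log2 difference for the 73 genes, both subunits and comparison lists, in 4 comparisons of single libraries. The medians of the 73 genes lie between -0.09 and 0.08, while the cytosolic ribosomal protein genes lie at -0.23 for swd22 deletion against wild type and at 0.20 for ssu72 against swd22 deletion.

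Members with AATAAA near the end of the feature were set beside those without. In swd22 deletion against wild type the median was 0.16 over 24 members with it (quartiles -0.06 to 0.23). Over 49 members without it the median was 0.03 (-0.13 to 0.17), so the quartile ranges overlap widely. In ssu72 deletion the medians were 0.04 and -0.08, and in clr4 deletion -0.03 and -0.02. In ssu72 against swd22 deletion, which does not involve the library labelled wild type, they were -0.092 and -0.085. Over all mRNA features the medians with and without the hexamer were 0.02 and 0.03 in swd22 deletion and -0.02 in both groups in ssu72 deletion. Among the named members at the low end in ssu72 deletion, nam9 and mrpl40 hold the hexamer and bot1 and mrpl23 do not. Members with and without TATAAA had medians of 0.09 and 0.05 in swd22 deletion, -0.038 and -0.0064 in ssu72 deletion and -0.049 and 0.015 in clr4 deletion.

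The other nuclear genes of mitochondrial translation, such as elongation factors and tRNA ligases of the organelle, were also close to wild type. By their descriptions the ligases mrs1, hrs1, ala1 and grs1 serve the cytoplasm as well. Of 33 genes in this list none was 1.5-fold higher or lower than wild type in swd22 or clr4 deletion. The background was 14.2% higher and 5.82% lower in swd22 deletion, and 10.6% and 3.62% in clr4 deletion. The medians of the list were -0.03 and -0.09. In ssu72 deletion the median was -0.19, with 28 of 33 below 0, where 52.2% of mRNA features were, and 1 at least 1.5-fold lower, guf1 (background 8.30%). The gene guf1 encodes a GTPase related to bacterial elongation factor LepA, and it held 635 reads in wild type, 665 in swd22 deletion, 402 in ssu72 deletion, 894 in clr4 deletion and 724 in the unnamed reference. The library labelled ssu72 deletion was the lowest, at -1.31 (-1.50 to -1.13) against wild type and -1.02 against swd22 deletion. The library labelled swd22 deletion was also below wild type, at -0.29 (-0.45 to -0.14), and wild type was above the unnamed reference by 0.38.

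RNAs that the mitochondrion itself makes differed more than the nuclear genes. Of 10 measured features of 13, the median against wild type was 1.11 in swd22 deletion, 1.06 in ssu72 deletion and 0.77 in clr4 deletion. The message of Var1, the ribosomal protein encoded there, held 6221 reads in wild type, 23515 in swd22 deletion, 23924 in ssu72 deletion, 18308 in clr4 deletion and 10465 in the unnamed reference. It was higher than wild type by 1.56 (1.52 to 1.60), 1.29 (1.25 to 1.33) and 0.98 (0.94 to 1.02), and wild type was also below the unnamed reference. The ribosomal RNAs had another order. The 15S rRNA of the small subunit was at 0.72, -0.54 and -0.73 against wild type and the 21S rRNA of the large subunit at 0.65, -0.60 and -0.74, so that swd22 deletion was the only deletion in which both were higher than wild type. In the unnamed reference the levels of 432 and 518 compare with 414 and 294 in wild type and 684 and 461 in swd22 deletion. These are levels in total RNA, and how rRNA was removed is not given in the sources used here.

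Against the unnamed reference the members lay slightly low in every labelled library, with medians of -0.07 in wild type, -0.08 in swd22 deletion, -0.15 in ssu72 deletion and -0.14 in clr4 deletion. All mRNA features had medians of 0.02, 0.06, -0.01 and -0.01. Members at least 1.5-fold lower numbered 6 (background 9.16%), 3 (background 9.05%), 4 (background 10.8%) and 6 (background 8.66%), and 0 (background 12.1%), 2 (background 18.4%), 1 (background 16.6%) and 0 (background 14.9%) were higher. Counting intervals lay below 0 for 32 members in wild type (background 37.5%), 32 in swd22 deletion (background 36.3%), 39 in ssu72 deletion (background 42.5%) and 41 in clr4 deletion (background 42.3%). They lay above 0 for 15 (background 40.6%), 16 (background 46.3%), 13 (background 41.1%) and 15 (background 40.4%) in the same order. The cytosolic ribosomal protein genes lay further below 0, at -0.44, -0.72, -0.50 and -0.61. The unnamed reference was the highest of the 5 libraries for 33 of 73 members, 21 of them beyond the counting intervals, and the lowest for 14, with 7 beyond. Over 5064 mRNA features it was highest in 28.5% and lowest in 30.5%. In 8 members it lay above every other library by at least 1.3-fold, namely mrpl4, mrpl12, mrps17, bot1, mrpl39, mrpl8, mrpl3 and mrpl28 (background 6.85%), a list made after the values were seen. The library labelled clr4 deletion was lowest for 22 members, 10 of them beyond the counting intervals, wild type for 18 with 7 beyond, ssu72 deletion for 16 with 5 beyond and swd22 deletion for 3 with 1 beyond. Most of these lowest ranks of members thus lay within counting error, and over mRNA features the shares lowest were 17.2%, 20.6%, 21.4% and 10.4%. Shares beyond the counting intervals were not computed over mRNA features, so those counts of members have no background beside them.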

How the data were processed

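RNA from 1 culture per genotype was sequenced on an Illumina NextSeq from ScriptSeq v2 libraries, which keep the strand of the RNA, per the labels' protocols. The submitters' processing notes list Trimmomatic and STAR and state no version. Genome build, counting and the source of the ratios are not stated there. The authors deposited, for 7015 features per library, log2 values with a p-value beside each, per the file headers. The deposited log2 values are ratios to 1 shared reference library, which carries no name in the files. The deposited p-values reflect read numbers alone, and none was used as a test.

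Both read numbers behind a ratio follow from ratio and p-value under a random sampling model. They were solved for 6562 features, from ratios alone for 91 and not for 362. Of the low estimates 100% were whole within 0.05 reads, among solved features only, and 0 reads enter as 0.5. The solving was checked on simulated data. These were written under the same sampling model, so that they cannot show whether the deposited p-values follow it. Differences are log2 ratios of reads on the deposited scale, measured where the higher library held at least 10 reads, with exact Clopper-Pearson intervals at the 95% level. Levels are reads per kilobase of feature span per 1000000 reads. The planned design had assumed counts or levels in the files.

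Groups follow the genotype label. Named members are those at least 2-fold from wild type with at least 50 reads, the 4 highest and 4 lowest in each deletion, the 3 of highest and 3 of lowest level, and the 2 of widest and 2 of narrowest range, and 1 item that this rule names is not reported here. The members and lists were chosen with earlier results of these data known, and the searches for AATAAA and TGTANATA, the protein families and the ranges within 1.5-fold were added later. The subunit came from the description or the budding yeast namesake. RefSeq coding sequences lay inside 99.6% of 5124 nuclear mRNA features. Coding sequences were aligned with BLAST 2.17.0, and values were computed with Python 3.11.15, NumPy 2.4.6, pandas 2.3.3 and SciPy 1.17.1, and plotted with matplotlib 3.10.9. Alternatives covered the scale, the read minimum, the value for 0 reads, members that overlap other features, the subunit source and the reference as control.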

Additional observations from a re-analysis of the deposited data

How the results depend on the processing

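Medians of the members, both subunits' medians and counts of members past 1.5-fold stayed within their margins under library totals as the scale, no minimum of reads, a mean of at least 50 reads and 0 reads set to 1, as did the subunits' medians with the subunit from RefSeq. With the median mRNA ratio as the scale, 1 member instead of 2 was lower in ssu72 deletion than in wild type, without mrpl40, and 1 instead of 2 higher in swd22 than in clr4 deletion, without SPCC777.17c, which is also the latter count without the 12 members that overlap on the same strand. With the unnamed reference as the control, the median was -0.082 in swd22 deletion and -0.15 in ssu72 deletion, 2, 1 and 0 members were higher in swd22, ssu72 and clr4 deletion, and 3, 4 and 6 were lower. The directions of mrpl44 in clr4 deletion (-0.056) and of mrp11 in swd22 (-0.10) and ssu72 deletion (-0.23) then turned, that of mrpl44 within counting error. Of 63 differences of named genes from wild type, 36 others moved and 24 did not. The cause was not tested. Without the 3 members that lie below all others in the library labelled wild type, an alternative chosen after seeing the data, 2, 1 and 0 members were higher. No paired analysis was possible because each genotype had 1 library. No scale moved the median of all mRNA features by over 0.1. Low counts limit cox1101, cox1102 and, in wild type, mrpl44, and the unstated strand setting limits the 54 members that overlap a feature on the other strand.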
